A study of Mus musculus with 12 samples.

Results

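The genes described here are 10 regulators of the passage from G1 into S phase, namely the D cyclins Ccnd1, Ccnd2 and Ccnd3, the E cyclins Ccne1 and Ccne2, the kinases Cdk2, Cdk4, Cdk6 and Cdk7, and the retinoblastoma gene Rb1. They were chosen by name for their place in this pathway, with earlier results of these data known. All 10 were found among the 24421 genes in the count table. They passed the filter on low counts that left 15220 genes for testing. RNA was sequenced from mouse embryonic fibroblasts (MEFs), cultured connective tissue cells, of a control genotype labelled Null and from MEFs in which the transcription factor genes Tfeb and Tfe3 had both been edited with CRISPR (DKO). Each genotype was left untreated or given 100 µM etoposide for 8 hr, with 3 libraries in each of 4 groups. Etoposide traps topoisomerase II on DNA and leaves double-strand breaks. The study's methods describe the untreated dishes as receiving DMSO, and its text describes the MEFs as SV40-immortalized, a treatment whose large T antigen binds both p53 and the retinoblastoma protein. No source used here says that replicate libraries came from separate cultures, so p-values measure the spread between these libraries, which may be partly technical, and each genotype is represented by cells of a single kind, so that differences between cell lines and effects of the editing cannot be told apart.

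In a dividing cell, D cyclins bind Cdk4 or Cdk6 and E cyclins bind Cdk2, and these complexes phosphorylate the retinoblastoma protein. Phosphorylation releases E2F transcription factors, which switch on genes of DNA synthesis and also the E cyclins themselves. After DNA damage, p53 raises the CDK inhibitor p21, the product of Cdkn1a, which holds these kinases in check. Only RNA was measured here.

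Libraries held between 45577023 and 104120871 counts on genes. Levels are given as CPM, counts set to a common library total, after scaling by the trimmed mean of M-values (TMM), and changes as log2 fold changes with their standard error (SE). A gene was called changed where the adjusted p was under 0.05 over all 15220 genes. In bulk RNA, fewer cells of a type and less RNA per cell cannot be told apart.

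The edited genes were examined as a check on the labels. Tfeb measured 38.9, 39.2 and 42.1 CPM in untreated Null MEFs, 4.60, 6.09 and 4.68 CPM in untreated DKO MEFs, 11.4, 10.2 and 10.4 CPM in Null MEFs after etoposide and 1.92, 1.61 and 2.20 CPM in DKO MEFs after etoposide. Every DKO library was below every Null library of the same treatment. Tfe3 measured 115.2, 109.9 and 114.2 CPM in untreated Null MEFs against 94.1, 93.1 and 91.0 CPM in untreated DKO MEFs, and 68.5, 69.6 and 68.1 CPM against 70.7, 71.2 and 63.4 CPM after etoposide. Without etoposide every DKO library was below every Null library, with a log2 fold change of -0.29 (SE 0.04), and after etoposide the genotypes overlapped. RNA level does not show whether an edited gene still makes protein.

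The p53 targets Cdkn1a, Mdm2 and Ccng1 served as a check on the treatment. With etoposide in Null MEFs, Cdkn1a rose from 65.7 ± 5.72 to 506.2 ± 7.31 CPM, Mdm2 from 121.0 ± 5.71 to 1834 ± 55.8 CPM and Ccng1 from 116.2 ± 1.67 to 2103 ± 15.6 CPM (mean ± SD, n = 3). In DKO MEFs they rose from 39.7 ± 1.14 to 240.9 ± 13.7, from 108.7 ± 2.38 to 588.8 ± 5.21 and from 136.7 ± 5.09 to 657.5 ± 25.1 CPM. All 3 rose in both genotypes, and the rise was larger in Null MEFs, with interactions of -0.34, -1.48 and -1.91 on the log2 scale.

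Most genes changed in every comparison, and counts of the 10 regulators are read against that background. With etoposide in Null MEFs, 7 of the 10 were called, 4 higher and 3 lower, where 79.4% of all genes tested were called, 42.3% higher and 37.2% lower. In DKO MEFs, etoposide changed all 10, 7 higher and 3 lower, against 75.1% of all genes, 43.7% higher and 31.5% lower. Between genotypes, 7 were called without etoposide, 2 higher and 5 lower in DKO MEFs, against 66.7% of all genes, 33.3% higher and 33.4% lower. After etoposide, 8 were called, 3 higher and 5 lower, against 74.0% of all genes, 37.5% higher and 36.6% lower. For the interaction, which asks whether etoposide moved a gene differently in the 2 genotypes, 7 were called, 4 positive and 3 negative, against 54.0% of all genes, 29.6% positive and 24.4% negative. Among all genes the larger number of positive than negative interactions (4507 and 3719) turned with DESeq2 (3937 and 4371), DESeq2's size factors (3797 and 4192) and the stricter filter (3816 and 3870). With 10 genes, counts this near the background are no result about the regulators as a class, and the sizes and directions for single genes follow. Comparisons between groups share libraries, such as the untreated Null libraries, which serve in both the etoposide and the genotype comparison.

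**Figure D1:**
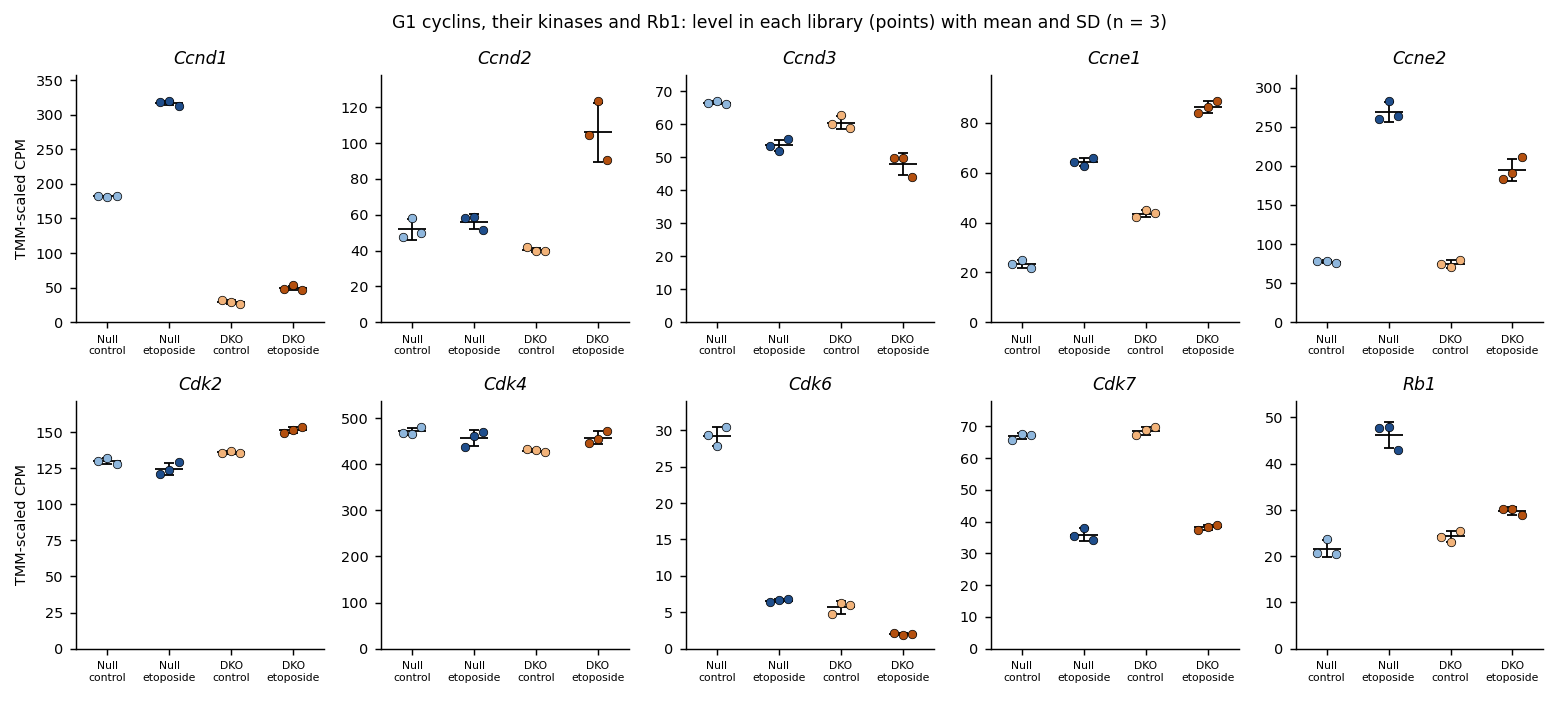
Level of each of the 10 genes in TMM-scaled CPM (vertical axes, starting at 0) in the 4 groups, with 1 point per library and a bar and whiskers for the mean and SD of 3 libraries. Ccnd1 and Cdk6 were low in DKO MEFs, the E cyclins rose with etoposide in both genotypes, and Cdk7 fell in both.

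Ccnd1, encoding cyclin D1, the D cyclin that growth factors induce in fibroblasts, showed a large difference between genotypes. It measured 182.2, 181.4 and 181.8 CPM in untreated Null MEFs and 32.7, 29.1 and 27.0 CPM in untreated DKO MEFs, and after etoposide 318.2, 319.7 and 313.3 CPM in Null MEFs and 48.4, 53.3 and 47.3 CPM in DKO MEFs. All 6 DKO libraries lay far below all 6 Null libraries, and within each genotype every etoposide library lay above every untreated one. The genotype difference was -2.62 (SE 0.06) on the log2 scale without etoposide and -2.67 (SE 0.05) after it, with adjusted p of 7.22e-17 and 5.77e-17 by edgeR's quasi-likelihood test after Benjamini-Hochberg adjustment. Of all genes tested, 7.08% were lower still in DKO MEFs without etoposide and 5.98% after etoposide. Etoposide raised Ccnd1 by 0.80 (SE 0.05) in Null MEFs and by 0.75 (SE 0.06) in DKO MEFs, and no difference between these rises was detected, the interaction being -0.06 with a 95% confidence interval from -0.22 to 0.10. Exons of Oraov1 on the opposite strand cover 23.4% of the exon bases of Ccnd1, and the sources used here do not state whether counting used strand. Oraov1 itself was higher in DKO than in Null MEFs, by 0.24 (SE 0.09) without and 0.44 (SE 0.08) after etoposide, opposite in direction to Ccnd1. With etoposide it rose as Ccnd1 did, by 0.40 (SE 0.09) in Null and 0.60 (SE 0.09) in DKO MEFs. Oraov1 averaged 10.5 CPM in untreated and 13.9 CPM in treated Null MEFs, and 12.5 and 19.2 CPM in DKO MEFs. The part of its reads in the values of Ccnd1 was not tested.

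Ccnd2, encoding cyclin D2, rose with etoposide in DKO MEFs. It measured 47.3, 58.4 and 49.97 CPM in untreated Null MEFs, 58.0, 58.9 and 51.4 CPM in Null MEFs after etoposide, 41.8, 39.9 and 39.9 CPM in untreated DKO MEFs and 104.5, 123.5 and 90.5 CPM in DKO MEFs after etoposide. The Null groups overlapped, while the DKO etoposide libraries were above all others and spread the most among themselves. In Null MEFs the change with etoposide was 0.11 (SE 0.09, 95% confidence interval from -0.08 to 0.31), called only with library size alone in place of TMM (0.28). Over left-out libraries this change ran from 0.04 to 0.20. In DKO MEFs the change was 1.39 (SE 0.09), and the interaction was 1.27 with adjusted p = 2.47e-07 by edgeR's quasi-likelihood test after Benjamini-Hochberg adjustment. The genotypes thus stood in opposite order in the 2 conditions, with DKO lower by -0.35 (SE 0.09) without etoposide and higher by 0.92 (SE 0.09) after it.

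Ccnd3, encoding cyclin D3, the third D cyclin, moved little. It measured 66.5, 67.0 and 66.2 CPM in untreated Null MEFs, 53.5, 51.8 and 55.4 CPM after etoposide, and in DKO MEFs 59.96, 62.7 and 58.7 CPM untreated and 49.9, 49.9 and 44.0 CPM after etoposide. Each etoposide group lay below its control without overlap, by -0.31 (SE 0.05) in Null and -0.34 (SE 0.05) in DKO MEFs. The genotype differences of -0.14 (SE 0.05) and -0.16 (SE 0.05) were small, and that without etoposide was no longer called when DKO control replicate 3 was left out (-0.12, adjusted p = 0.0667 by edgeR's quasi-likelihood test after Benjamini-Hochberg adjustment, over all alternatives from 0.000127 to 0.0667). With library size alone in place of TMM, the change in DKO MEFs was -0.07 and was not called, while that in Null MEFs was -0.15 and the difference between untreated genotypes -0.26, both called. Bysl covers 4.11% of the exon bases of Ccnd3 on the opposite strand. With etoposide Bysl went from a mean of 87.3 to 53.6 CPM in Null MEFs and from 63.7 to 69.9 CPM in DKO MEFs. The part of its reads in the values of Ccnd3 was not tested.

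Levels of different genes were compared as CPM per kb of exon, taking the union of each gene's exons. In untreated Null MEFs, Ccnd1 made up 74.7% ± 0.974 of the D cyclin total, Ccnd3 14.7% ± 0.0953 and Ccnd2 10.7% ± 1.06 (mean ± SD, n = 3). In untreated DKO MEFs Ccnd1 made up 35.9% ± 1.95, Ccnd3 39.4% ± 1.70 and Ccnd2 24.7% ± 0.691. After etoposide Ccnd1 made up 84.8% ± 0.159 in Null MEFs, and in DKO MEFs Ccnd2 held 41.2% ± 2.28, Ccnd1 38.8% ± 1.69 and Ccnd3 20.1% ± 1.10. The Null cells thus held mostly Ccnd1 RNA, and the DKO cells a mixture of all 3. The summed D cyclin level was 51.7 ± 0.574 CPM per kb in untreated Null MEFs and 17.5 ± 0.783 in untreated DKO MEFs, and 79.4 ± 0.955 and 27.3 ± 2.74 after etoposide. Shares depend on the length used, and with the longest transcript in place of the exon union Ccnd3 was the most abundant D cyclin in untreated DKO MEFs, at 52.3% against 26.4% for Ccnd1.

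**Figure D2:**
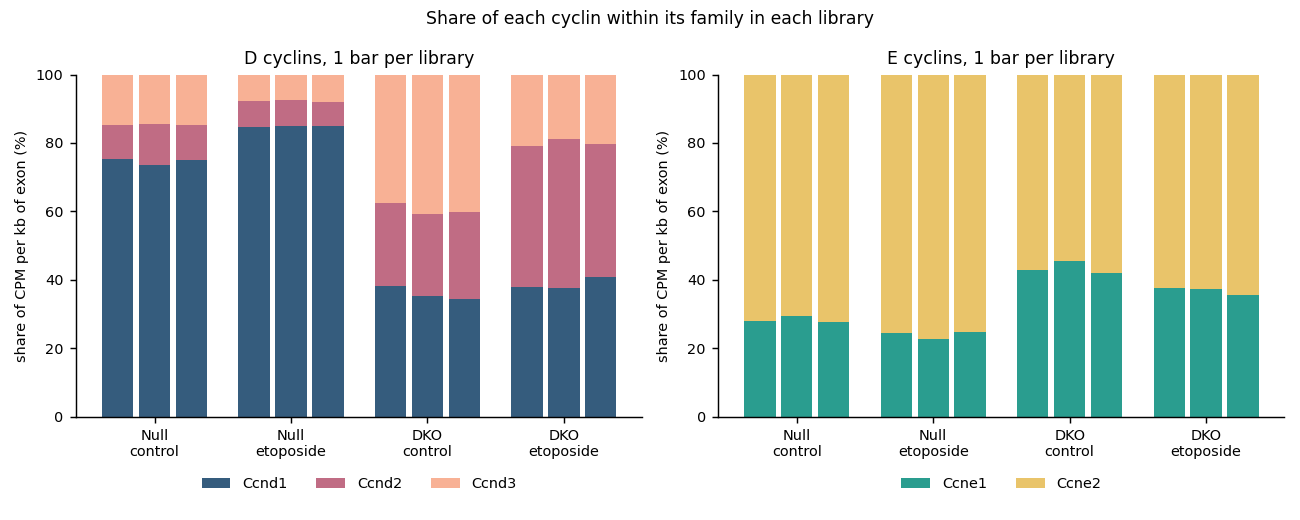
Share of each cyclin in the summed level of its family, in percent of CPM per kb of exon (vertical axis), with 1 bar per library for D cyclins (left) and E cyclins (right). Ccnd1 filled 73.6% to 84.97% of each Null library's D cyclin RNA and 34.4% to 40.7% of each DKO library's.

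The E cyclins, partners of Cdk2 at the entry into S phase, both rose with etoposide. Ccne1 measured 23.2, 25.0 and 21.9 CPM in untreated Null MEFs and 64.3, 62.7 and 66.0 CPM after etoposide, and 42.1, 44.9 and 43.9 CPM in untreated DKO MEFs and 83.9, 86.6 and 88.8 CPM after etoposide. The 4 groups did not overlap, and DKO MEFs held more Ccne1 than Null MEFs in both conditions. The rise was 1.46 (SE 0.05) in Null and 0.99 (SE 0.05) in DKO MEFs, with an interaction of -0.47 and adjusted p = 8.49e-06 by edgeR's quasi-likelihood test after Benjamini-Hochberg adjustment. The excess in DKO MEFs was accordingly 0.90 (SE 0.05) without etoposide and 0.43 (SE 0.04) after it.

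Ccne2, encoding cyclin E2, reached higher levels than Ccne1 per length in all 4 groups. It measured 78.7, 78.8 and 75.4 CPM in untreated Null MEFs and 259.5, 282.9 and 264.0 CPM after etoposide, and 74.0, 70.2 and 79.4 CPM in untreated DKO MEFs and 183.7, 191.1 and 211.0 CPM after etoposide. The untreated genotypes overlapped, and the treated ones did not, with DKO lower. Ccne2 rose by 1.79 (SE 0.05) in Null and 1.39 (SE 0.05) in DKO MEFs, the interaction was -0.40, and the genotype difference was -0.06 (SE 0.05, 95% confidence interval from -0.17 to 0.05) without and -0.46 (SE 0.05) after etoposide. With library size alone the difference without etoposide was -0.18 and was called. Ccne2 made up 71.7% ± 0.954 of E cyclin RNA per kb in untreated Null MEFs, 56.5% ± 1.87 in untreated DKO MEFs, and 76.1% ± 1.198 and 63.2% ± 1.05 after etoposide. Ints8, on the opposite strand and covering 17.4% of its exon bases, fell with etoposide by 0.69 (SE 0.05) in Null and 0.50 (SE 0.05) in DKO MEFs, the opposite direction to Ccne2. The part of Ints8 reads in the values of Ccne2 was not tested.

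Cdk2, the kinase that E cyclins activate, measured 130.4, 131.9 and 128.3 CPM in untreated Null MEFs, 120.9, 123.7 and 129.4 CPM in Null MEFs after etoposide, 135.6, 137.2 and 135.9 CPM in untreated DKO MEFs and 149.7, 151.6 and 153.5 CPM in DKO MEFs after etoposide. The DKO etoposide libraries were the highest, and the Null groups overlapped. The change with etoposide was -0.06 (SE 0.03) in Null and 0.15 (SE 0.03) in DKO MEFs, with an interaction of 0.22 and adjusted p = 0.000622 by edgeR's quasi-likelihood test after Benjamini-Hochberg adjustment. With library size alone the change in DKO MEFs was 0.43. In Null MEFs it was then 0.11 and called, the opposite sign, and it was also called, with the reported sign, with no filter (-0.09), without Null control replicate 3 (-0.08), without DKO control replicate 1 (-0.08) or 2 (-0.08) and without Null etoposide replicate 3 (-0.10). Between genotypes, Cdk2 was higher in DKO MEFs after etoposide by 0.28 (SE 0.03), and the difference of 0.07 (SE 0.03) without etoposide was not called.

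Cdk4, a partner of the D cyclins, was the most abundant of the 10 per length. It measured 468.1, 466.7 and 480.4 CPM in untreated Null MEFs, 438.8, 461.9 and 470.8 CPM in Null MEFs after etoposide, 432.8, 430.6 and 426.1 CPM in untreated DKO MEFs and 445.7, 454.9 and 472.8 CPM in DKO MEFs after etoposide. The untreated DKO libraries lay below all others, with a difference of -0.13 (SE 0.03) from untreated Null MEFs, and the other groups overlapped. In Null MEFs the change with etoposide was -0.05 (SE 0.03) and was not called, while it was called at 0.12 with library size alone and at -0.07 with no filter, so that its direction depended on the setting. After etoposide the genotype difference was 0.00 (SE 0.03) with a 95% confidence interval from -0.07 to 0.07. The rise in DKO MEFs of 0.09 (SE 0.03) and the interaction of 0.14 had adjusted p of 0.0206 and 0.0212 by edgeR's quasi-likelihood test after Benjamini-Hochberg adjustment. The rise was not called with no filter (0.05), with only the 6 libraries compared (0.06), without DKO control replicate 1 (0.07), 2 (0.06) or 3 (0.08) or without DKO etoposide replicate 2 (0.08) or 3 (0.06). With library size alone the rise was 0.36, the interaction 0.24 and the difference between untreated genotypes -0.26, all called. The interaction was not called with DESeq2 (0.07), with DESeq2's size factors (0.07), with the stricter filter (0.09), without DKO control replicate 1 (0.13) or 2 (0.12), without Null etoposide replicate 1 (0.11) or without DKO etoposide replicate 3 (0.10). Tspan31 covers 19.7% of the exon bases of Cdk4 on the opposite strand, and rose with etoposide in DKO MEFs by 0.21 (SE 0.04). The part of Tspan31 reads in the values of Cdk4 was not tested.

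Cdk6, the other kinase of D cyclins, was the least abundant of the 10 per length in every group, and of the 10 it changed the most with etoposide in Null MEFs. It measured 29.4, 27.8 and 30.4 CPM in untreated Null MEFs and 6.36, 6.63 and 6.75 CPM after etoposide, and 4.69, 6.27 and 6.01 CPM in untreated DKO MEFs and 2.08, 1.80 and 1.94 CPM after etoposide. Untreated Null libraries stood far above all others, and the DKO etoposide libraries below all others. Cdk6 fell by 2.15 (SE 0.08) with etoposide in Null and by 1.56 (SE 0.12) in DKO MEFs, and it was lower in DKO MEFs by -2.36 (SE 0.08) without and -1.77 (SE 0.12) after etoposide. The interaction was 0.59 with adjusted p = 0.00319 by edgeR's quasi-likelihood test after Benjamini-Hochberg adjustment, with the smaller fall in DKO MEFs on the log2 scale. Only 0.71% of genes tested fell further with etoposide in Null MEFs. Per kb of exon, Cdk6 made up 1.42% ± 0.0457 of the sum of Cdk4 and Cdk6 in untreated Null MEFs, 0.305% ± 0.0468 in untreated DKO MEFs, and 0.333% ± 0.00182 and 0.0985% ± 0.00881 after etoposide.

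Cdk7 is the catalytic part of the CDK-activating kinase, which phosphorylates the other kinases together with cyclin H (Ccnh) and Mat1 (Mnat1), and also acts in transcription within TFIIH. Cdk7 measured 65.7, 67.5 and 67.2 CPM in untreated Null MEFs and 35.4, 38.0 and 34.2 CPM after etoposide, and 67.3, 68.9 and 69.7 CPM in untreated DKO MEFs and 37.2, 38.3 and 39.0 CPM after etoposide. Treated libraries of both genotypes lay below all untreated ones, and the genotypes overlapped in either condition. The fall was 0.90 (SE 0.04 on the log2 scale) in Null and 0.85 (SE 0.04) in DKO MEFs, with adjusted p of 1.42e-12 and 5.23e-12 by edgeR's quasi-likelihood test after Benjamini-Hochberg adjustment. The interaction was 0.05, with a 95% confidence interval from -0.07 to 0.18, and was called, at 0.16, only with library size alone. The genotype difference was 0.04 (SE 0.04) without and 0.09 (SE 0.04) after etoposide, neither of them called, the latter with an interval from 0.00 to 0.18, and it was called at 0.13 when Null etoposide replicate 2 was left out and was 0.03 with DESeq2 and 0.02 with the stricter filter. Its partner Mnat1 fell too, by 1.19 (SE 0.06) in Null and 0.94 (SE 0.06) in DKO MEFs, whereas Ccnh changed by -0.15 (SE 0.06) in Null and 0.45 (SE 0.05) in DKO MEFs.

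Rb1, encoding the retinoblastoma protein that restrains E2F factors, rose with etoposide mainly in Null MEFs. It measured 20.6, 23.7 and 20.4 CPM in untreated Null MEFs and 47.7, 47.8 and 42.9 CPM after etoposide, and 24.1, 23.1 and 25.5 CPM in untreated DKO MEFs and 30.2, 30.2 and 28.8 CPM after etoposide. The untreated genotypes overlapped, and after etoposide all Null libraries lay above all DKO libraries. The rise was 1.10 (SE 0.06) in Null and 0.29 (SE 0.06) in DKO MEFs, with an interaction of -0.81 and adjusted p = 5.19e-07 by edgeR's quasi-likelihood test after Benjamini-Hochberg adjustment. With library size alone the rise in DKO MEFs was 0.57. DKO MEFs held less Rb1 after etoposide, by -0.64 (SE 0.06). The small excess without etoposide, 0.17 (SE 0.06), was not called without Null control replicate 1 (0.13) or 3 (0.13), without DKO control replicate 1 (0.16) or 3 (0.13), when libraries were thinned to the smallest (0.14), or with library size alone (0.05). Lpar6 and Rcbtb2 overlap Rb1 on the opposite strand, over 6.78% and 8.11% of its exon bases. Lpar6 moved as Rb1 did, by 2.16 (SE 0.07) with etoposide in Null MEFs, 1.14 (SE 0.07) in DKO MEFs and -0.72 (SE 0.06) between treated genotypes. It averaged 10.9 CPM in untreated and 48.8 CPM in treated Null MEFs, and 13.45 and 29.85 CPM in DKO MEFs. The part of Lpar6 reads in the values of Rb1 was not tested. Rcbtb2 fell with etoposide in both genotypes, by 0.49 (SE 0.04) in Null MEFs.

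**Figure D3:**
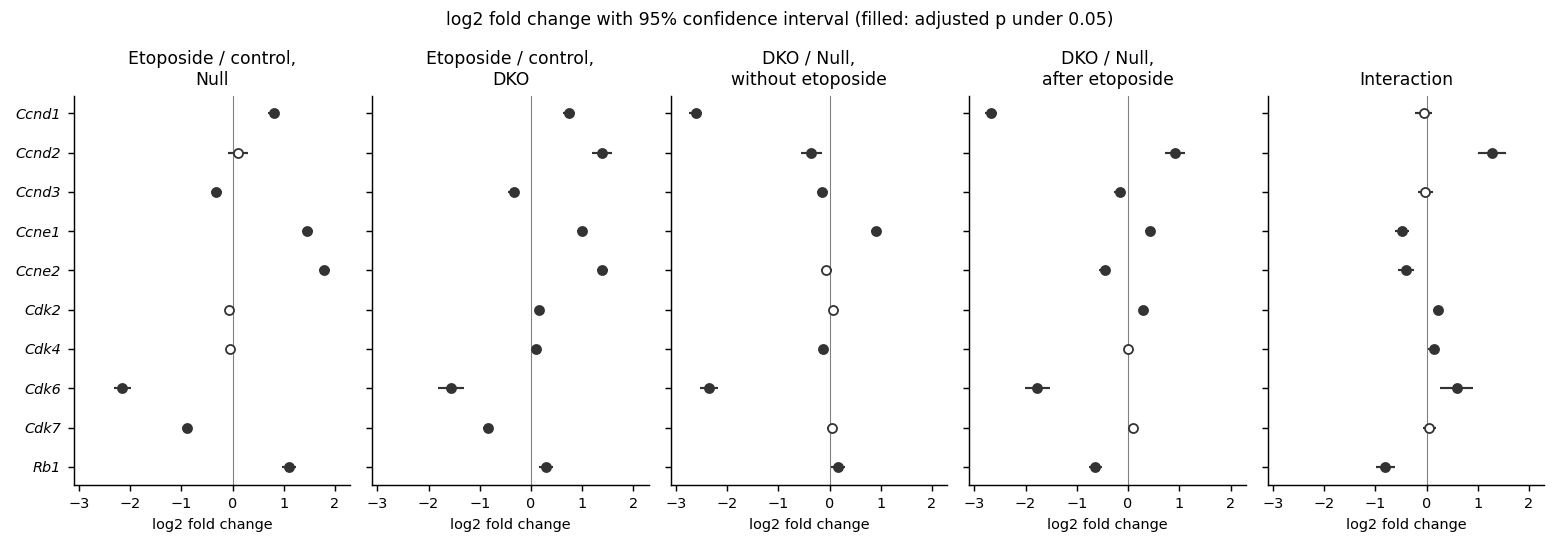
Log2 fold changes (horizontal axes) of the 10 genes in 5 comparisons, with 95% confidence intervals as lines and filled points where the adjusted p was under 0.05. Ccnd1 and Cdk6 lie far to the left in both comparisons of DKO with Null MEFs, while Cdk7 lies left of 0 only in the etoposide comparisons.

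Per kb of exon, the order of the 10 in untreated Null MEFs was Cdk4 (145.2 ± 2.33 CPM per kb), Ccnd1 (38.6 ± 0.0832), Ccne2 (22.2 ± 0.557), Cdk2 (20.9 ± 0.285), Cdk7 (18.0 ± 0.257), Ccne1 (8.77 ± 0.580), Ccnd3 (7.59 ± 0.0463), Ccnd2 (5.51 ± 0.613), Rb1 (3.58 ± 0.309) and Cdk6 (2.09 ± 0.0937). No neighbours in that order overlapped. In untreated DKO MEFs Ccnd1 dropped to the seventh place at 6.29 ± 0.612 CPM per kb, overlapping Ccnd3 at 6.89 ± 0.229, and Cdk2 overlapped Ccne2. After etoposide Ccne2 stood next to Cdk4 in both genotypes, at 76.9 ± 3.56 CPM per kb in Null and 55.9 ± 4.04 in DKO MEFs. In treated DKO MEFs Ccnd2 (11.3 ± 1.76), Ccnd1 (10.5 ± 0.685) and Cdk7 (10.3 ± 0.236) could not be ordered beyond their spread. The order depends on the length used. With the longest transcript in place of the exon union, Cdk2 and Cdk7 passed Ccne2 in untreated Null MEFs, Ccnd3 (17.3 CPM per kb) passed Ccne1 (11.7), and in untreated DKO MEFs Ccnd3 (15.7) and Ccnd1 (7.92) no longer overlapped, while Cdk4 stayed first and Cdk6 last in every group.

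The 10 genes differ in genomic span, from 4.39 kb for Cdk4 to 189.5 kb for Cdk6, and the median change with etoposide was lower among longer genes. In Null MEFs the median log2 fold change was 0.20 among 3859 genes under 10 kb, 0.15 among 4659 genes of 10 to 30 kb, -0.08 among 4126 genes of 30 to 100 kb and -0.37 among 1967 genes over 100 kb. In DKO MEFs these medians were 0.23, 0.20, 0.01 and -0.25. Cdk6 fell further than the median of its class, while Rb1, at 142.2 kb, rose. Cdk7, at 28.3 kb, fell in a class whose median was above 0. Between genotypes the medians of all 4 classes lay from -0.09 to 0.08. The genotype differences of Ccnd1, which spans under 10 kb, and of Cdk6 are given above. The part of length in these changes was not tested.

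**Figure D4:**
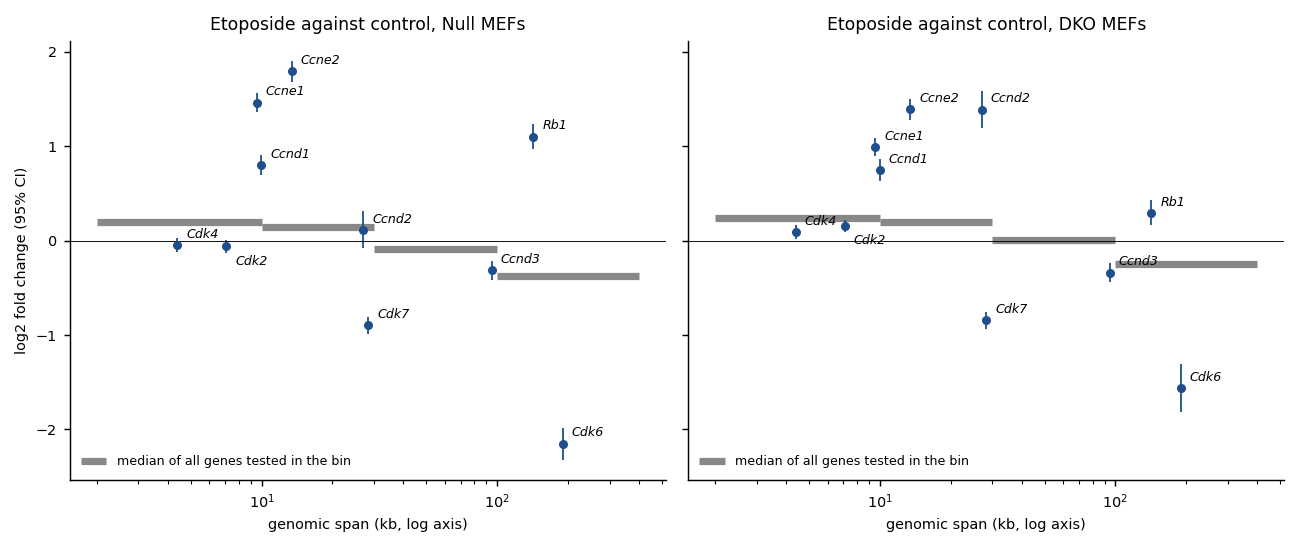
Log2 fold change with etoposide (vertical axis, with 95% confidence intervals) against genomic span in kb (horizontal log axis) for the 10 genes in Null (left) and DKO MEFs (right), with grey lines for the median of all genes tested in each span class. Rb1 lies above and Cdk6 below the median of genes over 100 kb in both genotypes.

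TFEB and TFE3 bind E-boxes with the core CACGTG, so the promoters of these genes were searched for it. RefSeq promoters on build GRCm38.p6, from 250 bases before to 50 bases after the start, matched 6 of the 10 genes, namely Ccnd3, Ccne1, Cdk2, Cdk4, Cdk6 and Cdk7. CACGTG reads the same on both strands and occurs in 7.15% of all 32851 promoters of this length. The promoter of Cdk4 holds 4 copies, starting at positions -172, -118, -98 and -11 from the start, and 0.0243% of promoters, 8 in all, hold 4 or more. Cdk6 and Cdk7 hold 1 each, at -220 and -100, and the windows of Ccnd3, Ccne1 and Cdk2 hold none. The promoters with a match are shown because TFEB and TFE3 are the edited factors. They run 5′ to 3′ on the strand of the gene, with CACGTG in capitals, for Cdk4 (chr10:127063285-127063584, plus strand), Cdk6 (chr5:3343643-3343942, plus strand) and Cdk7 (chr13:100730893-100731192, minus strand).

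Cdk4: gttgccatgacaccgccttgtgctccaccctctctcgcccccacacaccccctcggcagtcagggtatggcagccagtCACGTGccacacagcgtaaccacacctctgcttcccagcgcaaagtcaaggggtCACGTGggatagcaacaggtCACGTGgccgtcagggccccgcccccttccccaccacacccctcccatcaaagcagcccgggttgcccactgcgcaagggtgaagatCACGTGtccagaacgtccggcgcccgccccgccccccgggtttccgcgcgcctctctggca
Cdk6: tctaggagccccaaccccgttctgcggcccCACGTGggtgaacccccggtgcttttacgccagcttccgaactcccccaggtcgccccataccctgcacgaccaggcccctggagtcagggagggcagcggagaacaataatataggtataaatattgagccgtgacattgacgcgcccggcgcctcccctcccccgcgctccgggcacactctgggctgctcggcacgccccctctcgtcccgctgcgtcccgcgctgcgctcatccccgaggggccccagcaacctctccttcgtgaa
Cdk7: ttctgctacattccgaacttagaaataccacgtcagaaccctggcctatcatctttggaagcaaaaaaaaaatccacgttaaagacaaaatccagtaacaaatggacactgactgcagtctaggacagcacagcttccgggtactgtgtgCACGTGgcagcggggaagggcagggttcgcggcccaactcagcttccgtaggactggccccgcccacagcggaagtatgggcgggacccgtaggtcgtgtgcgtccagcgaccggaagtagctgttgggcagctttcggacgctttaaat

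The longer form TCACGTGA, which contains the shorter core, occurs in 0.974% of promoters and in none of the 6. Of the E2F-like motifs searched on both strands, TTTCCCGC occurs in 1.07% of promoters and was found once, at position -140 of Cdk2, while TTTGGCGC, TTTCGCGC and TTTGCCGC, in 0.514%, 0.323% and 0.441% of promoters, were in none of the 6. A match describes the sequence and does not by itself show binding. For Cdk4 and Cdk7, the study reported more TFE3 at the promoters once TFE3 was active, measured in a macrophage line and not in these MEFs.

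Other genes of the pathway were described from lists. Of 7 CDK inhibitors, 3 rose and 3 fell with etoposide in Null MEFs, where 42.3% of all genes rose and 37.2% fell, with a median of -0.18 against 0.07 for all genes. In DKO MEFs 2 rose and 5 fell, against 43.7% and 31.5% of all genes, with a median of -0.56 against 0.14, and the interaction was called and negative for all 7, against 24.4% of all genes. After etoposide 5 were lower and 1 higher in DKO than in Null MEFs, where 36.6% of all genes were lower and 37.5% higher, with a median of -0.90 against 0.00. Without etoposide 4 were lower and 2 higher, against 33.4% and 33.3% of all genes, with a median of -0.33 against -0.02. Cdkn1c, encoding p57, differed the most between treated genotypes at -2.64, with 9.59, 10.9 and 11.1 CPM in Null and 1.82, 1.89 and 1.45 CPM in DKO MEFs. Cdkn2b and Cdkn2a, encoding the INK4 inhibitor p15 and the proteins p16 and p19Arf, differed by -1.60 and -0.90. Without etoposide the differences were -1.625 for Cdkn1c, -0.33 for Cdkn2b and -0.74 for Cdkn2a. Cdkn1b, encoding p27, measured 51.4 ± 1.66 CPM in Null and 53.7 ± 4.22 CPM in DKO MEFs after etoposide, overlapping, and was higher in DKO MEFs without it (97.6 ± 2.54 against 69.8 ± 2.01 CPM).

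Of 6 partners and activators of the G1 kinases, 1 rose and 5 fell with etoposide in Null MEFs, against 42.3% and 37.2% of all genes, with a median of -0.24 against 0.07. In DKO MEFs 2 rose and 3 fell, against 43.7% and 31.5%, with a median of -0.03 against 0.14, and 5 interactions were called, all positive, against 29.6% of all genes. Without etoposide 0 were higher and 5 lower in DKO than in Null MEFs, against 33.3% and 33.4%, with a median of -0.16 against -0.02. After etoposide 2 were higher and 2 lower, against 37.5% and 36.6%. Cdc25a, a phosphatase that activates Cdk2, was the gene that rose in Null MEFs, by 0.65 (SE 0.04), and Cks1b, a small CDK-binding protein, fell by 0.48 (SE 0.03). Of 7 genes of G1 cyclin turnover, 3 rose and 3 fell in Null MEFs, against 42.3% and 37.2% of all genes, with a median of -0.04 against 0.07, and 2 rose and 2 fell in DKO MEFs, against 43.7% and 31.5%, with a median of 0.07 against 0.14. After etoposide 4 were higher and 2 lower in DKO MEFs (median 0.15), against 37.5% and 36.6% of all genes with a median of 0.00. Fbxw7, which targets cyclin E for degradation, rose by 0.98 (SE 0.04) in Null MEFs but not in DKO MEFs (-0.09, SE 0.04), and was lower in treated DKO MEFs by -1.46 (SE 0.04), while Ambra1, which targets D cyclins, fell by 1.10 (SE 0.05) in Null MEFs and by 0.58 (SE 0.05) in DKO MEFs. Gsk3b, a kinase that marks cyclin D1 for turnover, fell by 1.11 (SE 0.06) in Null MEFs, and Usp2, a deubiquitinase of cyclin D1, rose by 0.86 (SE 0.14).

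Of 12 other pocket proteins, E2F factors and DP partners, 7 rose and 2 fell with etoposide in Null MEFs, against 42.3% and 37.2% of all genes, with a median of 0.27 against 0.07. In DKO MEFs 5 rose and 2 fell, against 43.7% and 31.5%, with a median of 0.03 against 0.14. The pocket protein gene Rbl2 rose with etoposide by 0.81 in Null MEFs, from 32.5 ± 1.11 to 56.7 ± 1.42 CPM, while Rbl1 measured 94.6 ± 1.04 and 93.2 ± 0.470 CPM. E2f1 rose by 0.71 (SE 0.06) in Null and 0.56 (SE 0.06) in DKO MEFs and was higher in DKO MEFs without etoposide, by 0.60 (SE 0.06). E2f2 changed the most of these genes, by 1.21 (SE 0.08) with etoposide in DKO MEFs against 0.34 (SE 0.07) in Null MEFs, and was lower in DKO MEFs by -1.21 (SE 0.08) without and -0.35 (SE 0.07) after etoposide. After etoposide 6 of the 12 were higher and 5 lower in DKO than in Null MEFs, against 37.5% and 36.6% of all genes, with a median of 0.10 against 0.00. E2f7 and E2f5 were among those lower, by -0.57 (SE 0.04) and -0.55 (SE 0.06).

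Of 19 S phase genes under E2F control, 13 rose and 3 fell with etoposide in Null MEFs, against 42.3% and 37.2% of all genes, with a median of 0.25 against 0.07. In DKO MEFs 14 rose and 3 fell, against 43.7% and 31.5% of all genes, with a median of 0.35 against 0.14. Between treated genotypes 8 were higher and 9 lower in DKO MEFs, against 37.5% and 36.6% of all genes, with a median of -0.07 against 0.00. Rrm2, a subunit of ribonucleotide reductase, rose by 1.38 (SE 0.04) in Null and 0.60 (SE 0.04) in DKO MEFs, and Orc1, of the origin recognition complex, by 0.87 (SE 0.05) and 0.54 (SE 0.05). Pola1, the catalytic subunit of DNA polymerase alpha, fell by 1.07 (SE 0.05) and 0.64 (SE 0.05).

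Of 15 other cyclins, 9 rose and 4 fell with etoposide in Null MEFs, against 42.3% and 37.2% of all genes, with a median of 0.17 against 0.07. In DKO MEFs 8 rose and 3 fell, against 43.7% and 31.5%, with a median of 0.16 against 0.14, and 3 were higher and 8 lower in treated DKO MEFs, against 37.5% and 36.6%, with a median of -0.16 against 0.00. Ccng1 is given above, and Ccno, Ccng2 and Ccnf rose in Null MEFs by 2.11, 1.60 and 0.99. Of 14 other cyclin-dependent kinases, 3 rose and 10 fell in Null MEFs, against 42.3% and 37.2% of all genes, with a median of -0.39 against 0.07, and in DKO MEFs 3 rose and 8 fell, against 43.7% and 31.5%, with a median of -0.28 against 0.14. After etoposide 8 were higher and 4 lower in DKO than in Null MEFs, against 37.5% and 36.6%, with a median of 0.20 against 0.00. In Null MEFs, Cdk14, Cdk17 and Cdk13 fell with etoposide by 2.24 (SE 0.06), 1.76 (SE 0.04) and 1.13 (SE 0.03), and Cdk18 rose by 1.33 (SE 0.07). Cdk14 spans 616.9 kb and Cdk17 spans 106.2 kb, in the class of genes over 100 kb, while Cdk13 spans 94.8 kb. Cdk19, at 144.3 kb in the class over 100 kb, fell by 0.24 (SE 0.05) in Null and 1.27 (SE 0.05) in DKO MEFs.

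For each of the 10, the genes most alike over the 12 libraries were found among 9342 other genes that averaged 10 CPM or more, by the root mean square difference of log2 CPM centred on each gene's mean. For Ccnd1 these were Pfn2 (0.142) and Mcam (0.182), for Ccnd2 Adh7 (0.139) and Psph (0.181), and for Ccnd3 Tead2 (0.0494) and Kat7 (0.0550). For Ccne1 they were Kdsr (0.142) and Klhl22 (0.148), and for Ccne2 Tmem41a (0.105) and Ei24 (0.126). For Cdk2 they were Slmo2 (0.0307) and Pex5 (0.0377), for Cdk4 Snrpb (0.0297) and Ndufb5 (0.0299), for Cdk6 Gpr176 (0.270) and Ahr (0.292), for Cdk7 Slc12a2 (0.0445) and Tial1 (0.0567), and for Rb1 Zfp41 (0.0923) and Pdcl (0.0985). The small differences for Cdk4 and Cdk2 go with genes that hardly moved, whose own root mean square deviation was 0.0570 and 0.108, against 1.39 for Cdk6.

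Of the markers of the labelled cell type, Vim, Col1a1 and Col1a2 were abundant in every group, while Thy1 averaged 4.21 CPM in untreated Null MEFs and was nearly absent from untreated DKO MEFs, with 1 to 4 counts in each library. The summed level of 6 fibroblast markers was 5165, 5066 and 5231 CPM in untreated Null MEFs, 8237, 8520 and 8178 CPM in untreated DKO MEFs, 2824, 2813 and 2833 CPM in treated Null MEFs and 3391, 3359 and 3197 CPM in treated DKO MEFs. Of these 6, DKO MEFs held more of 5 and less of 1 in the untreated groups, against 33.3% and 33.4% of all genes, and more of 4 and less of 2 after etoposide, against 37.5% and 36.6%. Vim averaged 1632 CPM in treated Null and 801.3 CPM in treated DKO MEFs, where Col1a1 (1047 CPM) and Col1a2 (911.1 CPM) exceeded it. The 6 macrophage markers summed to 16.5, 18.3 and 14.8 CPM in untreated Null MEFs, 66.7, 66.5 and 65.7 CPM in treated Null MEFs, 7.22, 6.54 and 6.24 CPM in untreated DKO MEFs and 11.5, 9.18 and 11.2 CPM in treated DKO MEFs, nearly all of it from Cd14, and Tyrobp was at 3 counts or fewer in every library. The sum of 5 epithelial markers, mostly Krt19, averaged 16.3 and 36.6 CPM in untreated Null and DKO MEFs and 23.9 and 15.9 CPM in treated ones. The sum of 4 endothelial markers averaged 0.130 and 0.133 CPM in untreated Null and DKO MEFs and 2.54 and 1.10 CPM in treated ones. These levels moved with treatment and genotype, and their part in the changes of the 10 genes was not tested.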

How the data were processed

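The authors deposited raw counts per gene for 12 libraries (3 in each of 4 groups), made with stranded total RNA libraries after ribosomal RNA removal and paired-end sequencing. The submitters' processing notes name HISAT2, featureCounts and mm10, the study's methods name HTSeq, and the counting strand is not given in the sources used here. Summary lines that name no gene, between 36.9% and 46.64% of each library, were left out.

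Counts were filtered with filterByExpr, scaled by TMM and fitted in 1 model of 12 libraries with edgeR 4.0.16 (R 4.3.3), using glmQLFit, glmQLFTest and Benjamini-Hochberg adjustment. A first run used edgeR's older quasi-likelihood setting, and the newer setting was adopted after that run's counts of calls had been seen. The older setting is therefore reported as an alternative chosen after seeing the data. The procedure was tested on simulated counts, and its pass mark was limited to genes of at least 1 CPM after a first mark that covered weaker genes was missed. Alternatives were DESeq2 1.42.0, limma 3.58.1, other scalings and filters, thinning, a replicate block, fewer libraries and each library left out. Lengths came from GENCODE M21. The 10 genes and the lists were chosen with earlier results of these data known. Of each list, up to 4 genes were named, those with the largest change among genes called with etoposide in Null MEFs or between treated genotypes, with at least 1 CPM and no overlap in that comparison. Genes with larger changes in other comparisons may therefore be unnamed. Also named, outside the rule, were Cdkn1b and Rbl1, and, outside the rule and after values were seen, E2f2 and Cdk19. One gene that the rule selected is not reported here by name, and the counts and medians of its list include it.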

Additional observations from a re-analysis of the deposited data

Results flagged for a closer look

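The change with etoposide differed between genotypes, by a test of the interaction, for 7 of the 10 genes. The interaction was 1.27 for Ccnd2, 0.59 for Cdk6, 0.22 for Cdk2 and 0.14 for Cdk4, and -0.81 for Rb1, -0.47 for Ccne1 and -0.40 for Ccne2, on the log2 scale. For all genes tested, 54.0% had a called interaction. It also differed for the edited genes, at 0.49 for Tfeb and 0.28 for Tfe3, and for the p53 targets, at -0.34 for Cdkn1a, -1.48 for Mdm2 and -1.91 for Ccng1. The interaction of Tfeb was not called when libraries were thinned to the smallest (0.40), without DKO control replicate 1 (0.40) or without DKO etoposide replicate 3 (0.32). That of Cdk4 was not called with DESeq2 (0.07), DESeq2's size factors (0.07) or the stricter filter (0.09). Each of these settings left 6 of the 10 genes with a called interaction. The left-out libraries that ended the call of Cdk4 are given above.

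Reads on no feature, which none of the comparisons use, took a larger share after etoposide than in the controls of the same genotype, without overlap. The share was 26.2% ± 1.11 in treated against 23.2% ± 0.899 in untreated Null MEFs, and 21.9% ± 0.569 against 20.6% ± 0.432 in DKO MEFs (mean ± SD, n = 3).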

How the results depend on the processing

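Of 1090 log2 fold changes of the 10 genes under alternatives, 1031 kept their direction and their side of the threshold. With direction kept, 22 were no longer called and 10 became called. The other 27 changed sign, and among them Cdk2 and Cdk4 with etoposide in Null MEFs also became called with library size alone. The counts of genes called stayed within 1.5 times the reported count in all 5 comparisons, from 9855 to 13252 with etoposide in Null MEFs. For the values that changed sign, the cause was not tested. For Cdk4 between treated genotypes the value was -0.0573 with DESeq2, -0.0575 with DESeq2's size factors, -0.0617 with the stricter filter, -0.0129 with library size alone, -0.0169 with no filter and -0.0124 after thinning, and from -0.0350 to 0.0278 over left-out libraries. For Cdk4 with etoposide in Null MEFs it was 1.604e-05 with DESeq2's size factors, 0.122 with library size alone and 0.0403 with the stricter filter. For Cdk2 with etoposide in Null MEFs it was 0.105 with library size alone and 0.0233 with the stricter filter. The interaction of Cdk7 was -0.0126 with DESeq2, -0.0127 with DESeq2's size factors and -3.602e-05 with the stricter filter. With library size alone the genotype difference without etoposide was -0.0554 for Cdk2 and -0.0822 for Cdk7, and the interaction was 0.0484 for Ccnd1 and 0.0808 for Ccnd3. Over left-out libraries the interaction ran from -0.124 to 0.00215 for Ccnd1 and from -0.0690 to 0.0275 for Ccnd3, and Tfe3 between treated genotypes ran from -0.055 to 0.0331, the highest without DKO etoposide replicate 3.

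Library size alone moved the median of all genes by 0.17 with etoposide in Null MEFs, 0.27 in DKO MEFs, -0.12 between untreated genotypes and 0.10 in the interaction. The higher and lower calls were then 7806 and 4396 against 6435 and 5656, 9316 and 3004 against 6645 and 4790, 3977 and 6393 against 5066 and 5091, and 5734 and 3055 against 4507 and 3719. Between treated genotypes the higher and lower calls, 5701 and 5569, turned to 5002 and 5818 with DESeq2, 5072 and 6096 with DESeq2's size factors, 5478 and 5871 with no filter and 5539 and 5706 with library size alone, and lower calls also outnumbered higher ones when any of 5 single DKO libraries was left out (DKO control replicate 1 or 2, or any DKO etoposide replicate).

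The older quasi-likelihood setting of edgeR, chosen after seeing the data, called 11940 genes with etoposide in Null MEFs against 12091 and changed no call among the 10 genes. With a replicate block, 12111, 11416, 10171, 11274 and 8208 genes were called in the 5 comparisons, in the order etoposide in Null MEFs, etoposide in DKO MEFs, genotype without and after etoposide, and interaction, and no call among the 10 genes changed. Deviations of libraries with the same replicate number correlated between -0.032 and 0.0429 over 18 pairs, so the numbers were not taken to pair the libraries. Among the 10 genes, levels of Cdk6 in treated DKO MEFs rest on the fewest counts.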
